A study of Mus musculus with 3 samples.

Results

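Connective tissue fibroblasts of the mouse jaw were 95 of the 20504 cells kept from 3 single-cell libraries: 68 of 8880 in Ctrl, 12 of 5127 in 1d and 15 of 6497 in 7d. They were picked by their own counts of unique molecular identifiers (UMIs, one per captured RNA molecule). A kept cell had to hold 20 or more UMIs of the collagen genes Col1a1, Col1a2 and Col3a1 together. It could hold no Ptprc, the pan-leukocyte surface gene CD45, fewer than 20 UMIs of the osteoblast genes Bglap and Bglap2, and no more than 1 UMI of Hmga2. Pi16, Dpt, Clec3b and Mfap5, genes of loose connective tissue, had to sum to 3 or more. That sum could not be below the sum of the ligament and tendon genes Tnmd, Scx, Fmod, Aspn and Tnn. Every level of these genes in the chosen cells is therefore a description of how they were chosen.

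Fibroblasts of loose connective tissue make the collagen, elastic fibres and proteoglycans of dermis, fascia and the outer coat of vessels. Cells with Pi16 and Dpt are found in the fibrous layers of many mouse organs and are regarded as a reserve from which more specialised fibroblasts arise. Under injury such cells release chemokines that draw in leukocytes, and after radiation they are studied as the source of scar matrix.

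All animals were male wild-type C57BL/6 mice aged 10 weeks, 24 in all, and 8 were pooled into each library. Ctrl mice were not irradiated. The mice of the other libraries were irradiated with 10 Gy at the head and neck, with tissue taken on day 1 for 1d and on day 7 for 7d. Jaw pieces were trimmed of fat and fibrous tissue, digested with collagenase, frozen and thawed, per the labels' protocols, so that fibroblasts lost in trimming are not in these counts. Each group is 1 library, so nothing could be tested between groups and no replicate error is known. Brackets give exact 95% intervals throughout, and they cover counting error only.

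The libraries held 41048084, 46119700 and 49998293 UMIs in Ctrl, 1d and 7d. Fibroblasts carried 409764, 78551 and 86396 of them, a median of 5616, 6473 and 4839 per cell, with 2098, 2369 and 2258 genes. Cells with 2 or more Ptprc UMIs, which serve below as cells that should lack fibroblast genes, had medians of 3199, 7254.5 and 3965.5 UMIs. Between 22 and 28 kept barcodes of each library also occurred in another, none of them a fibroblast. Single fibroblasts weigh heavily in 1d and 7d, where 1 of 12 or of 15 cells can hold most UMIs of a gene.

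The label was checked on 13 fibroblast genes that the rule did not use. Their summed level was 28138, 31024 and 34805 counts per 1000000 UMIs (CPM) in the fibroblasts of Ctrl, 1d and 7d. It was 6197, 5734 and 10121 CPM in the ligament and tendon cells, which pass the same gate with the other sum higher, and 349, 232 and 179 CPM in Ptprc cells. Pdgfra, the receptor that marks fibroblast lineages, was detected in 48 of 68, 10 of 12 and 12 of 15 fibroblasts, and in 0.837%, 0.481% and 0.197% of Ptprc cells, at the median depths given above. Gsn, which encodes the actin-severing protein gelsolin, and Dcn, the proteoglycan decorin, led the list at 11765, 13965 and 15834 CPM and 10023, 11216 and 11794 CPM. Col14a1, a fibril-associated collagen, stood at 486, 458 and 451 CPM, against 43.9, 37.5 and 41.3 CPM in ligament and tendon cells. Lum, the proteoglycan lumican, was the exception in each library: at 1181, 1413 and 1921 CPM it was below its level in ligament and tendon cells, 2151, 2149 and 2731 CPM. Fbn1, the microfibril protein fibrillin 1, was level with them in 1d, at 331 CPM in fibroblasts and 349 CPM in ligament and tendon cells. Dpp4, a surface peptidase of the same fibroblasts in other organs, had 5, 0 and 3 UMIs, which is too few to describe.

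**Figure D1:**
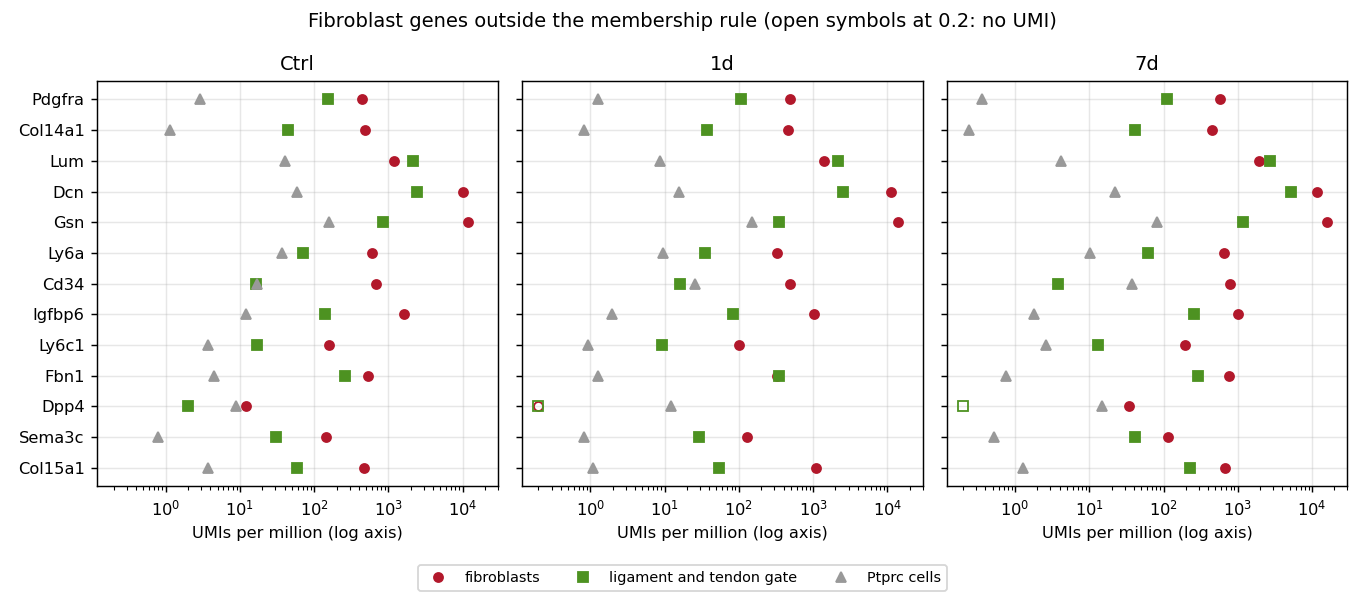
Level of 13 fibroblast genes that did not choose the cells, in CPM on a log axis, for fibroblasts (circles), ligament and tendon cells (squares) and Ptprc cells (triangles) of the 3 libraries. Fibroblasts lie to the right of Ptprc cells for each of the 13 genes except Dpp4 in 1d, where they hold no UMI, and Lum lies further right in ligament and tendon cells.

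Markers of most other cells were few, with exceptions that move between libraries. Genes of marrow stroma (Cxcl12, Kitl and Lepr) were not few, with 285, 38 and 50 UMIs in the fibroblasts of Ctrl, 1d and 7d. They were met in 57 of 68, 10 of 12 and 13 of 15 fibroblasts, at a summed CPM above that of ligament and tendon cells in each library. Ligament and tendon genes, most of them in the rule, were met in 39, 5 and 12 fibroblasts, and chondrocyte genes in 17, 2 and 1. Macrophage genes summed to 1, 2 and 0 UMIs in the fibroblasts of Ctrl, 1d and 7d, T and NK cell genes to 2, 0 and 0, and epithelial genes to 5, 0 and 0. Neutrophil genes came to 730, 777 and 81.0 CPM, with 107 of 299 UMIs in 1 Ctrl cell, and Ltf and Retnlg were at 0 in both irradiated libraries. Neutrophil genes over all kept cells stood at 74844, 144888 and 47954 CPM. Haemoglobin genes came to 10923, 178 and 903 CPM, with 1955 of 4476 UMIs in 1 Ctrl cell. Smooth muscle and pericyte genes had 66 of 79 UMIs in 1 Ctrl cell and 70 of 76 in 1 cell of 7d. In 1d the endothelial list held 60 UMIs, all of Flt1, a VEGF receptor, while Pecam1, Cdh5, Kdr and Emcn were at 0. Their part in the results below was not tested, but 12, 0 and 1 fibroblasts with 10 or more UMIs of S100a8, S100a9 and haemoglobin genes were left out as an alternative.

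Fibroblasts were a smaller share of the kept cells in both irradiated libraries. They were 0.766% (0.595 to 0.970) in Ctrl, 0.234% (0.121 to 0.408) in 1d and 0.231% (0.129 to 0.381) in 7d. The ratio of shares to Ctrl was 0.306 (0.151 to 0.569) in 1d and 0.301 (0.160 to 0.533) in 7d. Leukocytes enter this share: 4183, 2702 and 4560 of the kept cells of Ctrl, 1d and 7d held 2 or more Ptprc UMIs. Among the cells with 20 or more collagen UMIs and no Ptprc, fibroblasts were 68 of 375 in Ctrl (18.1%, 14.4 to 22.4), 12 of 164 in 1d (7.32%, 3.84 to 12.4) and 15 of 81 in 7d (18.5%, 10.8 to 28.7). That gave ratios to Ctrl of 0.404 (0.199 to 0.752) in 1d and 1.02 (0.542 to 1.80) in 7d. With Ptprc cells out of the denominator, 1d was below Ctrl beyond counting error and 7d was not distinguishable from Ctrl at this number of cells. How many cells the digestion and the freezing lost in each library was not measured.

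**Figure D2:**
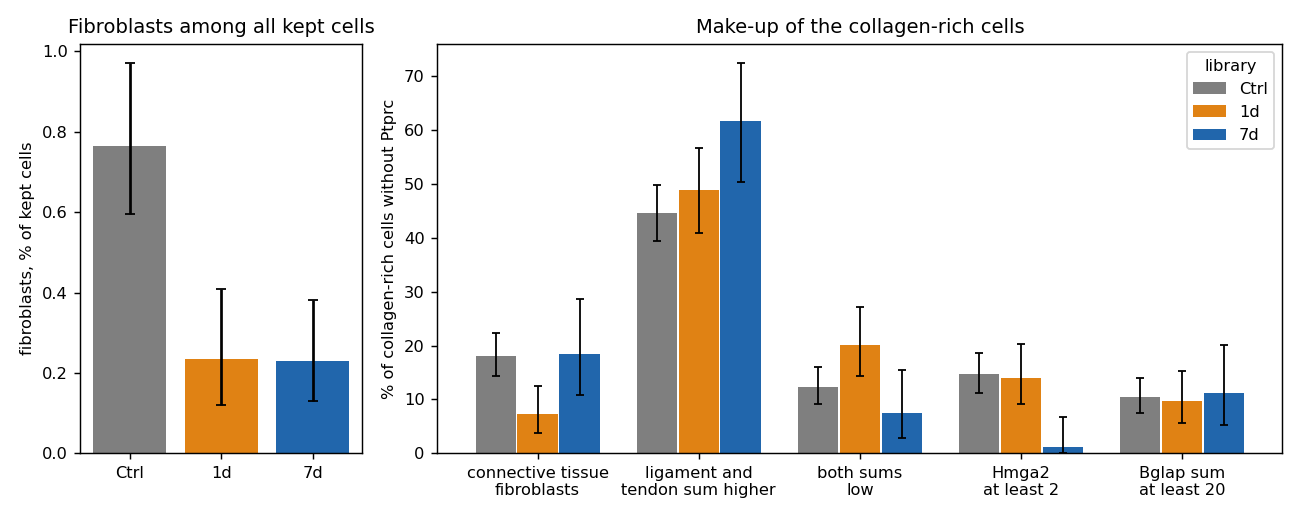
Left, fibroblasts as a percentage of kept cells; right, the make-up of the collagen-rich cells without Ptprc, in Ctrl, 1d and 7d, with exact 95% binomial intervals for counting error. Fibroblasts are 0.766%, 0.234% and 0.231% of kept cells, and 18.1%, 7.32% and 18.5% of collagen-rich cells.

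The other collagen-rich cells differed too. Ligament and tendon cells were 167 of 375 in Ctrl (44.5%), 80 of 164 in 1d (48.8%) and 50 of 81 in 7d (61.7%). Cells with 2 or more UMIs of Hmga2, a chromatin protein of immature cells, were 55 of 375 in Ctrl (14.7%), 23 of 164 in 1d (14.0%) and 1 of 81 in 7d (1.23%).

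The gate's edge held different parts of the libraries. A sum of exactly 3 for Pi16, Dpt, Clec3b and Mfap5 was found in 5, 0 and 3 fibroblasts of Ctrl, 1d and 7d, a sum of 4 or 5 in 10, 0 and 0, and a sum of 6 or more in 53, 12 and 12. Cells just outside, with a sum of 2 that was not below the ligament sum, were 1, 0 and 1. Another 23, 4 and 8 cells had a sum of 3 or more but a higher ligament sum. Collagen sums of 20 to 49 UMIs were found in 22, 1 and 3 fibroblasts, and 11, 1 and 1 cells that met the other terms had 10 to 19. Ctrl fibroblasts thus lay near the collagen limit more often than those of 1d and 7d.

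The fibroblasts were not uniform. Dpt, the matrix protein dermatopontin, was detected in 59 of 68, 11 of 12 and 13 of 15 cells of Ctrl, 1d and 7d, and Mfap5, a microfibril protein, in 53, 9 and 12. Clec3b, the plasminogen-binding tetranectin, was found in 36, 8 and 10 cells. Pi16, a secreted peptidase inhibitor, was found in 32, 9 and 9 cells, and all 4 markers met in 19, 5 and 5. By level Pi16 stood at 417, 1209 and 1701 CPM, Mfap5 at 986, 700.2 and 938 CPM, Dpt at 803, 827 and 914 CPM and Clec3b at 400.2, 446 and 532 CPM. Pi16 UMIs were also met in 6.91%, 22.3% and 11.3% of Ptprc cells at 22.5, 30.6 and 22.8 CPM, far below its level in fibroblasts.

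Within Ctrl, 32 fibroblasts with a Pi16 UMI were set beside 36 without one, at median depths of 5229.5 and 6354 UMIs. Col3a1, the collagen of loose and elastic tissue, came to 13068 CPM in the Pi16 cells and 5274 CPM in the others. Mfap5 came to 1539 CPM in the Pi16 cells and 572 CPM in the others, Cd34, a surface sialomucin of fibroblasts and progenitors, to 986 CPM in the Pi16 cells and 448 CPM in the others, and C3, the central complement protein, to 729.8 CPM in the Pi16 cells and 188 CPM in the others. Cd55, which encodes a complement regulator, was likewise higher where Pi16 was detected, with 119.7 CPM (21 UMIs) in the Pi16 cells and 21.3 CPM (5 UMIs) in the others. Thbs4, a thrombospondin of tendon and muscle junctions, went the other way with 159.6 CPM in the Pi16 cells and 422 CPM in the others. Procr, the protein C receptor, did so too with 131 CPM in the Pi16 cells and 849 CPM in the others, but 1 Ctrl cell held 72.1% of its UMIs. Inmt, a methyltransferase of Col15a1-type fibroblasts, came to 91.2 CPM in the Pi16 cells and 299 CPM in the others in Ctrl. In 7d the order of Inmt was turned, with 1133 CPM in the Pi16 cells and 111 CPM in the others. That of Thbs4 was turned too, with 119 CPM (6 UMIs) in the Pi16 cells and 27.7 CPM (1 UMI) in the others. In 1d, with 9 Pi16 cells and 3 others, C3 came to 429 and 492 CPM in that order. Thbs4 came to 258 and 246 CPM there, Procr to 258 and 197 CPM and Inmt to 275 and 0 CPM. Col3a1 and Mfap5 belong to the rule, and all of these genes come from cells the rule chose, so the values are a description.

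The gates that chose fibroblasts and ligament and tendon cells fix part of any difference between them, and the following values are a description. In Ctrl, Tnxb, the matrix protein tenascin X, had 139 UMIs (339 CPM) in fibroblasts and 3 (2.03 CPM) in ligament and tendon cells. Mmp3, the matrix protease stromelysin 1, had 1330 UMIs (3246 CPM) in fibroblasts and 77 (52.0 CPM) in ligament and tendon cells. Gsn and Cd34 were among the 10 genes furthest above ligament and tendon cells in each of the 3 libraries. Levels follow with fibroblasts given first and ligament and tendon cells after them. The 1d genes of that group held Flt1 (764 and 4.06 CPM), Dkk2, a secreted Wnt inhibitor (586 and 23.3 CPM), and Col15a1, a basement membrane collagen (1082 and 54.8 CPM). In the same order, the 7d genes held Crabp1, a retinoic acid binding protein (2037 and 126 CPM), Plpp3, a lipid phosphatase (4155 and 268 CPM), and Bmp4, a bone morphogenetic protein (671 and 58.2 CPM).

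On day 1 most genes of the fibroblasts were near their Ctrl level. Of 1327 genes for which 10 or more UMIs were expected in each library, 38 (2.86%) were past 2-fold higher in 1d and 76 (5.73%) past 2-fold lower, 8.59% in all, and the median log2 ratio was -0.06. Under TMM factors, a scaling that assumes most genes do not change and here moved all of them by -0.19 on the log2 scale, the split was 23 higher and 127 lower. Leaving out, for each gene, the cell with most of its UMIs in each library left 1050 genes measured, 10 of them higher and 101 lower, and those 10 were among the 38. That alternative was chosen after seeing the data.

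Among genes in which no cell held over 20% of the UMIs, Enpp2, the secreted enzyme autotaxin that makes lysophosphatidic acid, had 1489 CPM in 1d and 678 CPM in Ctrl, a ratio of 2.20 (1.75 to 2.73). It was detected in 11 of 12 cells of 1d and 35 of 68 of Ctrl. Hmox1, the haem-degrading oxygenase induced by oxidants, had 1706 CPM in 1d and 815 CPM in Ctrl, a ratio of 2.09 (1.70 to 2.56). In ligament and tendon cells its ratio was 0.567, the opposite direction. S100a4, a calcium-binding protein of motile fibroblasts, had 2355 CPM in 1d and 1298 CPM in Ctrl and a ratio of 1.81 (1.53 to 2.15). Sparc, a collagen-binding glycoprotein of the matrix, had 12539.6 CPM in 1d and 7889.9 CPM in Ctrl and a ratio of 1.59 (1.48 to 1.71). Further ratios were those of Mmp14, the membrane collagenase (1.72), Anxa1, an anti-inflammatory annexin (1.62), Col5a1, a fibril collagen (1.54), Htra1, a secreted protease (1.47), Ubb, polyubiquitin (1.42), and Ftl1, ferritin light chain (1.30). Thinned to 1000 UMIs per cell, Col5a1 was at -0.03 on the log2 scale.

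Genes lower on day 1 included secreted and metabolic genes. Gas6, the ligand of the TAM receptors, had 204 CPM in 1d and 829.7 CPM in Ctrl, a ratio of 0.245 (0.139 to 0.404), and the same gene stood at 0.182 in ligament and tendon cells. Gclc, which starts glutathione synthesis, had 2 UMIs in 1d and 75 in Ctrl, a ratio of 0.139 (0.0165 to 0.520). Ifitm3, an interferon-induced membrane protein that blocks virus entry, had 980.3 CPM in 1d and 1901 CPM in Ctrl and a ratio of 0.516 (0.403 to 0.652). Fstl1, a secreted follistatin-like protein, had 853 CPM in 1d and 1555 CPM in Ctrl and a ratio of 0.549. Lower ratios were also those of 0.309 for Chka, a choline kinase, 0.342 for Cryab, a small heat shock protein, 0.361 for Tlr2, a pattern receptor, 0.381 for Ctsc, a lysosomal protease, and 0.528 for Has1, a hyaluronan synthase. In 1d 75% of Has1 UMIs were in 1 cell, and its ratio was 0.170 with the highest cell left out and 0.220 with 50 or more collagen UMIs required.

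On day 7 the fibroblasts differed from Ctrl far more. Of 1463 measured genes, 89 (6.08%) were past 2-fold higher in 7d and 266 (18.2%) past 2-fold lower, 24.3% in all, with a median log2 ratio of -0.10. TMM factors moved all genes by -0.44 and gave 36 higher and 443 lower. Both comparisons use the same Ctrl library. Leaving out the highest cell of each gene gave 38 higher and 263 lower in 7d, of which 36 and 202 were among those counts. Expected UMIs came from pooled counts, with 409764 fibroblast UMIs in Ctrl and 86396 in 7d. A gene absent in 7d was therefore measured at a lower CPM in Ctrl than a gene absent in Ctrl needed in 7d. Lower genes thus entered more easily, also in 1d, and the lists passed the same filter. Higher genes were 25.1% of those past 2-fold in 7d, 33.5% with 5 expected UMIs and 20.2% with 30.

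Among the gene lists with 5 or more measured genes, those of inflammation had the lowest median in 7d. Of 32 cytokine, chemokine and related genes 20 were measured, and 19 of the 20 were past 2-fold lower in 7d against Ctrl, where 18.2% of all genes were. List medians here and below are log2 ratios unless named otherwise, and that of these genes was -2.91 in 7d, with 3 genes that had no UMI set to a floor of 3 UMIs over the library. In 1d the same genes had a median of -0.38, with 6 past 2-fold lower and 1 higher, against 5.73% and 2.86% of all genes. In ligament and tendon cells 11 of these 20 were past 2-fold lower in 7d and 1 higher, with a median of -1.93, so the lower level was not shown to be particular to fibroblasts. The share over all genes of ligament and tendon cells is not given here. Without the fibroblasts that carried granulocyte or red cell RNA the 7d median was -2.78.

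Chemokines that attract monocytes and neutrophils led. Ccl2, the main monocyte chemokine (chr11:82035571-82037453, plus strand, GRCm38), had 974, 162 and 1 UMIs in Ctrl, 1d and 7d, found in 36, 5 and 1 cells. A single cell held 432 of these UMIs in Ctrl and 93 in 1d. The 7d to Ctrl ratio of Ccl2 was 0.00487 (0.000123 to 0.0272), or 0.0336 with cells thinned to 1000 UMIs. Cxcl1, a neutrophil chemokine, had 1097, 63 and 12 UMIs, which is 2677, 802 and 139 CPM, and a 7d ratio of 0.0519 (0.0267 to 0.0910). In Ctrl 43.2% and in 1d 95.2% of its UMIs were in 1 cell, and without the deepest cell of each library the 7d ratio was 0.104. Cxcl2, its close relative, had 340, 112 and 1 UMIs and a 7d ratio of 0.0139 (0.000352 to 0.0782). In Ctrl 52.1% of these were in 1 cell. No 7d UMI of Cxcl2 remained with the highest cell left out or with cells thinned to 1000 UMIs. The 7d ratios under these settings, 0.0936 and 0.316, are values at the floor of 3 UMIs and not measured levels. Levels of Cxcl2 also differed in Ptprc cells, at 4827, 1016 and 458 CPM in Ctrl, 1d and 7d, where 829.7, 1426 and 11.6 CPM were found in fibroblasts, and the part of free RNA in this gene was not tested. Ccl2 in Ptprc cells was 89.0, 98.8 and 61.8 CPM, far below its 2377, 2062 and 11.6 CPM in fibroblasts. Ccl7, another monocyte chemokine, had 228, 36 and 3 UMIs, with 116 of the 228 in 1 Ctrl cell. Cxcl10, which draws T cells, had 247, 39 and 0 UMIs, so it was at least 17.4-fold lower in 7d. Cxcl5 with 138, 19 and 0 UMIs was at least 9.70-fold lower.

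The cytokines and enzymes followed. Il6, the acute-phase cytokine, had 359, 18 and 7 UMIs and was lower in both irradiated libraries, with ratios of 0.262 (0.153 to 0.419) in 1d and 0.0925 (0.0369 to 0.193) in 7d. In Ctrl 1 cell held 60.4% of its UMIs, and without the deepest cell of each library the 1d ratio was -0.46 on the log2 scale, against -1.93 with it. Ptgs2, the inducible cyclooxygenase, had 285, 31 and 2 UMIs, detected in 36, 6 and 1 cells, and a 7d ratio of 0.0333 (0.00401 to 0.121). With cells thinned no Ptgs2 UMI remained in 7d, and the ratio of 0.278 is a value at the floor. Tnfaip6, a hyaluronan-binding protein induced by TNF, stood at 803, 853 and 116 CPM, with a 7d ratio of 0.144 (0.0685 to 0.269), or 0.0682 without the deepest cell of each library. Icam1, a leukocyte adhesion molecule, stood at 437, 306 and 46.3 CPM, with a 7d ratio of 0.106 (0.0286 to 0.276), or 0.336 thinned. Lif, a cytokine of the same family as Il6, had 77, 1 and 2 UMIs, with 48 of the 77 in 1 Ctrl cell. Nfkbia, the inhibitor of NF-kB and itself an NF-kB target, was lower by less, at 1406, 1209 and 671 CPM and a 7d ratio of 0.478 (0.358 to 0.626). Only Il33, an alarmin kept in the nucleus, was not past 2-fold in 7d, at 0.622 (0.257 to 1.30).

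**Figure D3:**
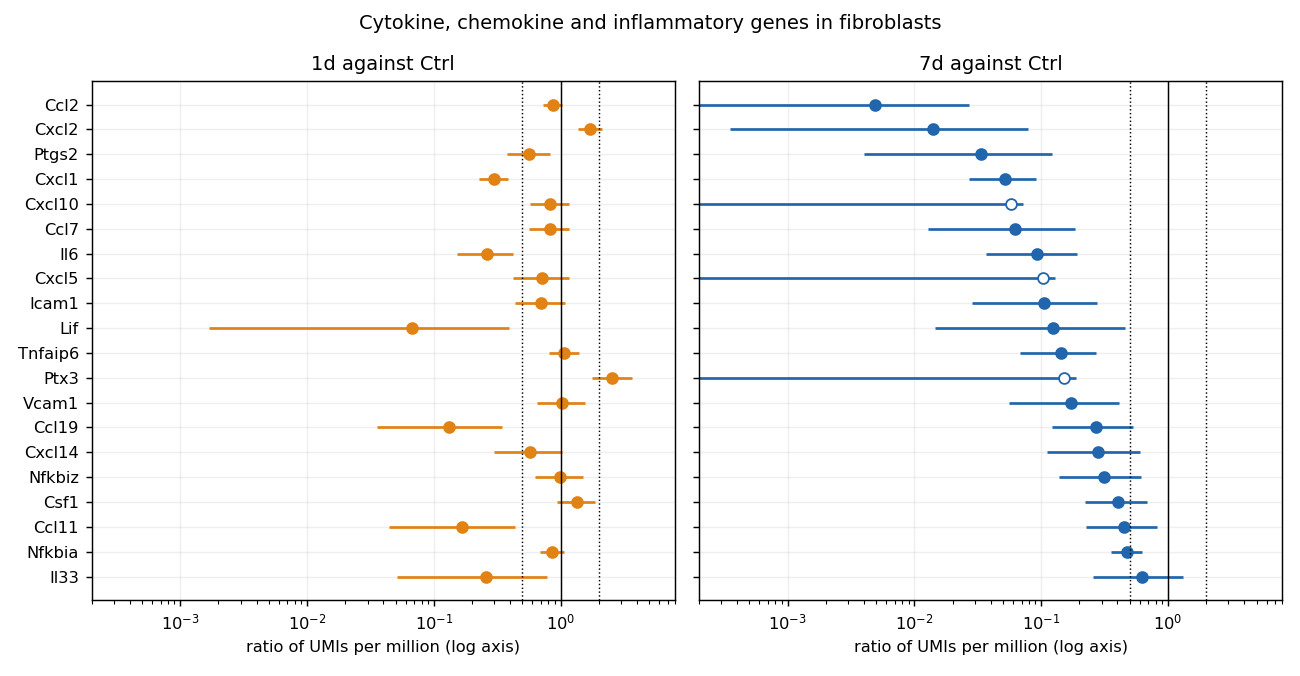
Ratio of CPM in fibroblasts, 1d against Ctrl (left) and 7d against Ctrl (right), for the 20 measured inflammatory genes on a log axis. Bars are exact 95% intervals for counting error, some running past the left edge, dotted lines mark 2-fold, and open circles have no UMI in 7d and sit at the floor. In 7d 19 of 20 genes lie left of 0.5, while in 1d they lie on both sides of 1.

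The single cells were spread widely. Inflammatory genes took a lowest, median and highest of 4.81, 67.8 and 982 UMIs per 10000 in Ctrl cells. The values were 3.90, 45.2 and 401 in 1d cells and 5.35, 19.2 and 48.8 in 7d cells. No 7d cell of 15 was above the Ctrl median, and all of them lay inside the wide range of Ctrl cells. The quartiles were 34.3 and 142 in Ctrl, 32.6 and 126 in 1d and 10.9 and 27.9 in 7d.

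**Figure D4:**
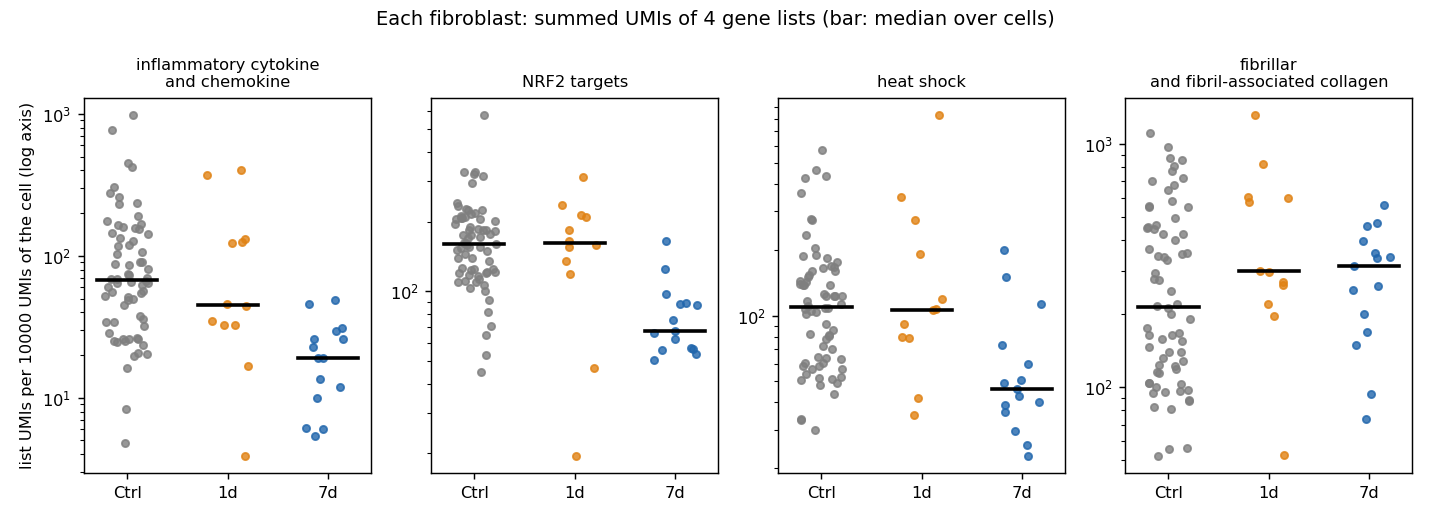
Summed UMIs of 4 gene lists per 10000 UMIs of each fibroblast, 1 point per cell, on log axes, in Ctrl (68 cells), 1d (12) and 7d (15), with bars at the medians. Most 7d cells lie below the Ctrl median for inflammatory (15 of 15), NRF2 target (14 of 15) and heat shock genes (12 of 15). The collagen medians are higher in 1d and 7d than in Ctrl, on a list that holds the collagens of the gate.

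Chemokine genes of this kind are textbook targets of NF-kB, so their promoters were read for the letters of its binding site. Windows of 300 bases around RefSeq start sites (GRCm38.p6) were searched on both strands for GGGA, 2 bases of any kind and TTCC, which reads GGAA, 2 bases of any kind and TCCC on the other strand. Of the 20 measured genes 14 had an entry, and 6 of the 14 (42.9%) held the letters, as did 441 of 27025 gene symbols (1.63%). The list was chosen from known inflammatory genes, so these 2 shares are a description and no test. The genes with a match were Cxcl2, Cxcl1, Cxcl10, Il6, Csf1 and Nfkbia. Ptgs2, Icam1, Lif, Tnfaip6, Ptx3, Ccl19, Cxcl14 and Il33 held none, and a part of NF-kB in the lower 7d levels was not tested. The 3 matched genes with the lowest 7d ratios are shown with the match in capitals, each from 250 to 51 bases before the start site and read 5′ to 3′ on the gene's own strand. Cxcl2 (chr5:90903649-90903848, plus strand) and Cxcl1 (chr5:90890995-90891194, plus strand) hold matches at -97 and -96 and at -71 and -70, which overlap, and Cxcl10 (chr5:92348940-92349139, minus strand) holds 1 at -159. A match is a run of letters and does not show that a factor binds.
Cxcl2: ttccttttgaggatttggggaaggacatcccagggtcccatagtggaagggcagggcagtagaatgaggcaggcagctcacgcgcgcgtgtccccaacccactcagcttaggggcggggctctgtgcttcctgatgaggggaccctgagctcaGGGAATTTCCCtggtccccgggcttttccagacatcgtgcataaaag
Cxcl1: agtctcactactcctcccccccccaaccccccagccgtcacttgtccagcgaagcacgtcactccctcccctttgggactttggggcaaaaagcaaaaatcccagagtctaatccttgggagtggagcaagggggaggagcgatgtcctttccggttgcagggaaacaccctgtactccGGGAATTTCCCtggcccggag
Cxcl10: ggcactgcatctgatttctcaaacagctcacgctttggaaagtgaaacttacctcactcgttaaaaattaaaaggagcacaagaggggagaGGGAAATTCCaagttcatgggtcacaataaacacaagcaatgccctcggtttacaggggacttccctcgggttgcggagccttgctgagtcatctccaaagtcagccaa

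Stress genes were lower in 7d as well. Of 14 heat shock genes, which encode protein-folding chaperones, 9 were past 2-fold lower in 7d and none higher, against 18.2% and 6.08% of all genes, with a median of -1.17. In 1d the median was 0.03, with 1 gene past 2-fold on each side, against 2.86% of all genes higher and 5.73% lower. Hsp90aa1, the stress-inducible HSP90, stood at 2767, 2495 and 556 CPM, with a 7d ratio of 0.201 (0.147 to 0.268). Hsph1, a partner of HSP70, had 96, 28 and 1 UMIs. Hspa1a, the inducible HSP70, had 3565 CPM in 1d and 791 CPM in Ctrl, a ratio of 4.51 (3.83 to 5.31), but 55% of its UMIs were in 1 cell of 1d, and the ratio was 2.60 with the highest cell left out. In ligament and tendon cells 13 of 14 heat shock genes were past 2-fold lower in 7d, with a median of -1.64. The share over all genes of those cells is not given here.

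NRF2 is the factor that answers oxidants. In 7d all 10 measured targets had ratios below 1, 5 of them past 2-fold, against 18.2% of all genes lower, with a median ratio of 0.499. In 1d the median was -0.13, with 1 higher and 2 lower past 2-fold, against 2.86% and 5.73% of all genes. Hmox1, higher in 1d above, had 116 CPM in 7d and 815 CPM in Ctrl, a ratio of 0.142 (0.0675 to 0.264) or 0.0645 without the deepest cell, and was found in 4 of 15 cells of 7d and 53 of 68 of Ctrl. Txnrd1, which reduces thioredoxin, had 57.9 CPM in 7d and 437 CPM in Ctrl, a ratio of 0.132 (0.0425 to 0.315). Sod2, the mitochondrial superoxide dismutase and also an NF-kB target, had 133, 35 and 2 UMIs and a 7d ratio of 0.0713 (0.00855 to 0.263). Mt1 and Mt2, metal-binding metallothioneins, stood at 3807, 4774 and 1470.0 CPM and 3292, 4392 and 1181 CPM, with 7d ratios of 0.386 (0.320 to 0.463) and 0.359 (0.290 to 0.439). Over the alternatives they ran from 0.276 to 0.546 (equal weight per cell) for Mt1 and from 0.265 to 0.604 (thinned) for Mt2. Txnip, an inhibitor of thioredoxin, was higher instead, with 498 CPM in 7d and 105 CPM in Ctrl, a ratio of 4.74 (3.03 to 7.41). Sod3, the superoxide dismutase of the matrix, had a 7d ratio of 1.57 (1.16 to 2.11). In single cells the NRF2 targets had medians of 67.6 UMIs per 10000 in 7d and 161 in Ctrl, and 14 of 15 cells of 7d were below the Ctrl median.

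The p53 targets are the usual mark of radiation damage. Of 33 genes 6 were measured. None was past 2-fold in 1d, where 8.59% of all genes were, and 3 were past 2-fold lower in 7d, where 18.2% of all genes were, so few genes stand behind this list. Cdkn1a, the p53-driven inhibitor of the cell cycle, stood at 993, 586 and 521 CPM, with ratios of 0.590 (0.425 to 0.801) in 1d and 0.524 (0.377 to 0.715) in 7d. Mdm2, which degrades p53, had a 7d ratio of 0.261 (0.0826 to 0.631). Phlda3 and Btg2 had 7d ratios of 1.50 (0.928 to 2.36) and 1.29 (0.793 to 2.02), so the list did not move as one. Its 7d median of -1.26 became -0.18 with 50 or more collagen UMIs per cell required. The senescence list, which holds Ccl2 and Cxcl1 of the secretory set, had a 7d median of -1.16.

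Genes that respond to glucocorticoids, which damp inflammation, went both ways. Tsc22d3, the glucocorticoid-induced leucine zipper GILZ (chrX:140539528-140600659, minus strand, GRCm38), had the highest ratio among the genes named for 7d. It stood at 198, 331 and 1505 CPM, was found in 35, 9 and 14 cells, and had a 7d ratio of 7.61 (5.72 to 10.2) and a 1d ratio of 1.67 (1.03 to 2.63). In ligament and tendon cells its 7d ratio was 11.3, and in Ptprc cells it stood at 65.4, 60.9 and 125 CPM. Cdkn1c, a cell cycle inhibitor, had 567 CPM in 7d and 142 CPM in Ctrl, a ratio of 4.01 (2.68 to 5.96), and Dusp1, a MAP kinase phosphatase, had a ratio of 2.28 (1.87 to 2.77), or 1.69 under TMM factors. Of 12 measured genes of the list 4 were past 2-fold higher and 5 lower in 7d, against 6.08% and 18.2% of all genes, so the list did not move one way. Among the lower ones were Mt1, Mt2 and Cebpd, a factor of the acute phase, at 0.452 (0.295 to 0.667). Without the doublets Scrublet marks, Cebpd was at 0.745.

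Immediate early genes, which also respond to digestion of tissue, also split. Fos stood at 1396, 789 and 3993 CPM with a 7d ratio of 2.86 (2.50 to 3.28), and Egr1 at 1606, 1400.4 and 2743 CPM with a 7d ratio of 1.71 (1.47 to 1.98). Over the alternatives the 7d ratio of Fos ran from 1.96 (thinned) to 3.58, and that of Egr1 from 1.26 (TMM factors) to 2.45. Nr4a3 and Nr4a2, orphan nuclear receptors, had 7d ratios of 0.0351 (0.000883 to 0.199) and 0.216 (0.0916 to 0.434). Of 23 measured genes 2 were past 2-fold higher and 7 lower in 7d, against 6.08% and 18.2% of all genes, with a median of -0.35. In 1d none was higher and 4 were lower, against 2.86% and 5.73% of all genes. Among the 4 was Zfp36, which destabilises cytokine RNA, with 255 CPM in 1d and 1003 CPM in Ctrl. Its ratio was 0.254 (0.153 to 0.397), or 0.485 without the doublets Scrublet marks.

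Collagens are the main product of these cells, and most measured ones were within 2-fold of Ctrl in both libraries. Col1a1 stood at 8976, 13953 and 5879.9 CPM, Col1a2 at 8629, 12590.5 and 7142 CPM and Col3a1 at 8609.8, 10592 and 12096 CPM, and the rule used all 3. Type I collagen was higher in 1d than in Ctrl and lower in 7d, while Col3a1 was higher in both, which describes cells chosen by these genes. Under TMM factors the Col3a1 ratios were 1.07 in 1d and 1.04 in 7d. Without the deepest cell of each library the Col1a1 ratio was 1.26 in 1d. Over 12 measured fibrillar and fibril-associated collagens the medians were 0.37 in 1d and 0.19 in 7d. Col5a3, a minor fibril collagen, had 544 CPM in 7d and 139 CPM in Ctrl, a ratio of 3.91 (2.60 to 5.86), and Col16a1 had 7 UMIs in 7d and 84 in Ctrl, a ratio of 0.395 (0.154 to 0.851). Col12a1, past 2-fold in 1d at 2.43 (1.72 to 3.39), was at -0.21 on the log2 scale without the deepest cell of each library.

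Of the enzymes that finish and cross-link collagen, none of 13 measured in 1d was past 2-fold, where 8.59% of all genes were. In 7d 3 of 15 were higher and none lower, against 6.08% and 18.2% of all genes. Loxl2 and Loxl1, lysyl oxidases that cross-link fibres, had 7d ratios of 2.37 (1.52 to 3.63) and 2.40 (1.57 to 3.62). Crtap, a part of the prolyl 3-hydroxylase complex, was the third at 2.25 (1.23 to 3.98). Of the elastic fibre genes Fbln5, fibulin 5, stood at 154, 471 and 417 CPM, with ratios of 3.06 (1.98 to 4.67) in 1d and 2.71 (1.75 to 4.15) in 7d. In 7d 15 of its 36 UMIs were in 1 cell. Mfap2, a microfibril protein, had ratios of 2.17 (1.25 to 3.62) and 2.06 (1.20 to 3.42) in 1d and 7d. Fn1, fibronectin, stood at 957, 738 and 3009 CPM, a 7d ratio of 3.15 (2.68 to 3.69), and 45.8% of its 7d UMIs were in 1 cell, without which the ratio was 2.05. Among proteoglycans, Bgn (biglycan), Dcn and Lum had 7d ratios of 1.26 (1.10 to 1.45), 1.18 (1.10 to 1.26) and 1.63 (1.36 to 1.94). Aspn, asporin, which the rule used, and Ogn, osteoglycin, had 5 and 4 UMIs in 1d and 71 and 109 in Ctrl, ratios of 0.367 (0.116 to 0.898) and 0.191 (0.0512 to 0.504).

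Matrix-degrading enzymes went apart. Mmp3 stood at 3246, 4214 and 243 CPM, the highest of the listed proteases in Ctrl and 1d, and had a 7d ratio of 0.0749 (0.0462 to 0.115). It was found in 34, 6 and 5 cells, and in 1d 72.5% of its UMIs were in 1 cell. Mmp2, gelatinase A, found in every fibroblast, had a 7d ratio of 0.759 (0.648 to 0.884), and Mmp14, which activates it, had a ratio of 2.05 (1.39 to 2.98). Serpine2, an inhibitor of thrombin and plasminogen activators, had 2465 CPM in 7d and 698 CPM in Ctrl, a ratio of 3.53 (2.94 to 4.23). In 7d 95 of its 213 UMIs were in 1 cell, and the ratio was 2.46 with the highest cell left out and 2.61 under TMM factors. Plat, the tissue plasminogen activator, had a ratio of 2.63 (1.63 to 4.19), with 13 of its 30 UMIs of 7d in 1 cell. Adamts4 and Adamts1, aggrecan-cleaving proteases, had 7d ratios of 0.0870 (0.0104 to 0.322) and 0.490 (0.363 to 0.649). In Ctrl 73.4% of Adamts4 UMIs were in 1 cell, and its ratio was 0.339 without the cells that carried granulocyte or red cell RNA. In all, 4 of 14 were past 2-fold higher and 5 lower in 7d, against 6.08% and 18.2% of all genes. Their median was -0.49, and it was 0.26 without the cells that carried granulocyte or red cell RNA. Timp1 and Timp3, protease inhibitors, had 1d ratios of 0.157 (0.0421 to 0.411) and 0.170 (0.0984 to 0.275), while 1 Ctrl cell held 67.6% of the Timp3 UMIs and its ratio was 0.332 with the highest cell left out.

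Tenascin C and thrombospondins, proteins of wounded matrix, were low on day 7. Tnc had 337, 56 and 11 UMIs in 17, 3 and 1 cells, a 7d ratio of 0.155 (0.0765 to 0.281). All 11 UMIs of 7d were in 1 cell, so the ratio of 0.0558 with the highest cell left out is a value at the floor of 3 UMIs. Thbs1 stood at 661, 1859 and 69.4 CPM, a 7d ratio of 0.105 (0.0382 to 0.232), and 73.3% of its 1d UMIs were in 1 cell. With cells thinned no Thbs1 UMI remained in 7d, and the ratio of 0.349 is a value at the floor. Postn, periostin, a product of active fibroblasts, stood at 1342, 1375 and 1192 CPM with a 7d ratio of 0.888 (0.713 to 1.10). Genes of myofibroblasts and of TGF-beta signalling had a 7d median of -0.99 over 8 measured genes. None was past 2-fold higher and 4 were lower, against 6.08% and 18.2% of all genes. Among them Smad7 and Skil, feedback inhibitors of the pathway, had ratios of 0.405 (0.189 to 0.772) and 0.306 (0.109 to 0.692). Ccn2, connective tissue growth factor and a TGF-beta target, was at 1.82 (1.42 to 2.31).

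Wnt and BMP genes were the group with the highest 7d median, 1.03, with 8 of 15 measured genes past 2-fold higher and 3 lower, against 6.08% and 18.2% of all genes. In 1d the median was 0.65, with 3 higher and 1 lower, against 2.86% and 5.73% of all genes. Bmp4 stood at 183, 382 and 671 CPM, with ratios of 2.09 (1.32 to 3.23) in 1d and 3.67 (2.56 to 5.24) in 7d. In 7d 58.6% of its UMIs were in 1 cell, and the ratio was 2.10 with the highest cell left out. Dkk2 stood at 159, 586 and 509 CPM, with ratios of 3.69 (2.47 to 5.47) and 3.21 (2.14 to 4.78) in 1d and 7d. Sfrp1 and Sfrp2, which bind Wnt ligands outside the cell, had 7d ratios of 4.45 (2.61 to 7.56) and 2.66 (1.97 to 3.57), with 63.3% and 54.8% of their UMIs in 1 cell, and Sfrp1 was at 2.20 with the highest cell left out. Nbl1, a BMP antagonist, had 1840.4 CPM in 7d and 669 CPM in Ctrl, a ratio of 2.75 (2.25 to 3.36). Wnt5a, a ligand outside the beta-catenin route, had a ratio of 2.05 (1.49 to 2.79). The list also counts Tcf4, at 2.04 (1.62 to 2.55), which encodes an E-protein and not the Wnt effector often called TCF4. Tcf4 is 1 of the 8 genes past 2-fold higher, and its value is the 7d median of the list. On the lower side, Bmp2 had 197 CPM in 7d and 647 CPM in Ctrl, a ratio of 0.304 (0.175 to 0.497) or 0.149 with the highest cell left out, Sfrp4 had 211, 9 and 3 UMIs in Ctrl, 1d and 7d, and Wif1, a Wnt inhibitor, 2157, 3794 and 984 CPM. In single cells this shift was small: the list took a median of 75.2 UMIs per 10000 in 7d cells and 65.5 in Ctrl cells. With 5 or with 30 expected UMIs required in place of 10, the 7d median was 0.22.

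The insulin-like growth factor system differed by member. Igfbp2 and Igfbp3, binding proteins that hold the ligand, had 1d ratios of 7.93 (5.51 to 11.5) and 5.42 (3.63 to 8.09), but were found in 4 and 5 of 12 cells, and 1 cell held 60.8% and 57.4% of their UMIs. With the highest cell left out Igfbp3 was at 3.55. Igfbp2 had 52, 79 and 0 UMIs in Ctrl, 1d and 7d. Igfbp4 stood at 2231, 2992 and 3704 CPM and had ratios of 1.34 (1.16 to 1.55) in 1d and 1.66 (1.46 to 1.89) in 7d. Htra3, a secreted protease of the same family as Htra1, was at 3.92 (2.56 to 5.99) in 7d, with 20 of its 43 UMIs of 7d in 1 cell.

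Of receptors, 1 of 16 was past 2-fold higher and 1 lower in 1d, where 8.59% of all genes were past 2-fold. In 7d 1 of 17 was higher and 3 lower, where 24.3% of all genes were past 2-fold, a share near that of the receptors. Cd44, the hyaluronan receptor, had 162 CPM in 7d and 627 CPM in Ctrl, a ratio of 0.258 (0.139 to 0.441), and Fgfr1, an FGF receptor, 0.445 (0.315 to 0.614). Pdgfra had ratios of 1.08 (0.743 to 1.54) and 1.30 (0.928 to 1.78) in 1d and 7d, and Pdgfrb 1.84 (1.21 to 2.72) in 7d. Il1r1, the interleukin 1 receptor, had 3 UMIs in 1d and 62 in Ctrl, a ratio of 0.252 (0.0507 to 0.773). Ramp2, a co-receptor of adrenomedullin, was at 3.20 (1.93 to 5.24) in 7d. Among transcription factors Runx1 and Osr2 had 7d ratios of 0.250 (0.123 to 0.456) and 0.256 (0.0681 to 0.685), while Prrx1, a mark of limb and jaw mesenchyme, was at 1.50 (1.10 to 2.03).

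Genes of Pi16-type fibroblasts, called universal fibroblast genes, were mostly below Ctrl in 1d. Their 1d median was -0.62, the lowest of the lists with 5 or more measured genes, and 11 of 13 had ratios below 1. On each side 1 was past 2-fold, against 2.86% of all genes higher and 5.73% lower. In 7d the median was 0.11, with 3 of 13 past 2-fold on each side, against 6.08% of all genes higher and 18.2% lower. The list holds Pi16, and it also holds Has1 and Gfpt2, which makes the sugar precursors of hyaluronan, with 7d ratios of 0.156 (0.0824 to 0.270) and 0.0912 (0.0246 to 0.237). With the highest cell left out Has1 was at 0.0449 in 7d. Genes of Col15a1-type fibroblasts, which sit near vessels and other tissue cells, had a 7d median of 0.71. Col15a1 itself stood at 473, 1082 and 683 CPM, and Inmt had 706 CPM in 7d and 209.9 CPM in Ctrl, a ratio of 3.36 (2.38 to 4.73), or 9.19 with a marker sum of 6 or more required. In 7d 25 of the 61 Inmt UMIs were in 1 cell. C4b, a complement component, had a 7d ratio of 2.57 (1.80 to 3.62). Lpl, lipoprotein lipase, had 659.8 CPM in 7d and 146 CPM in Ctrl, a ratio of 4.51 (3.08 to 6.59), with 61.4% in 1 cell and a ratio of 2.80 without the highest cell.

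Of sugar-burning genes Hk2, a hexokinase, had 69.4 CPM in 7d and 559 CPM in Ctrl, a ratio of 0.124 (0.0451 to 0.275), and Ldha, lactate dehydrogenase, 0.252 (0.119 to 0.474). The 10 measured had a 7d median of -0.74, with none past 2-fold higher and 5 lower, against 6.08% and 18.2% of all genes. In single cells, 14 of 15 of 7d lay below the Ctrl median of the list. Slc3a2, a chain of amino acid transporters, had 104 CPM in 7d and 722 CPM in Ctrl and a ratio of 0.144 (0.0653 to 0.277). Slc6a6, the taurine transporter, listed because the series title names taurine, had 130, 32 and 11 UMIs and ratios of 1.28 (0.844 to 1.90) in 1d and 0.401 (0.195 to 0.742) in 7d. Of 7 interferon-response genes measured, 7 had 1d ratios below 1 and 1 was past 2-fold lower, against 5.73% of all genes, with a median of -0.52. In 7d 6 were below 1 and 2 past 2-fold lower, against 18.2% of all genes, with a median of -0.22, and none was past 2-fold higher in either library. The mitochondrially encoded genes, a sign of cell quality, had medians of -0.18 in 1d and 0.35 in 7d, and the median mitochondrial share was 2.45%, 2.59% and 2.89% in Ctrl, 1d and 7d.

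Further genes were named for the higher side of 7d. Gas1, a surface protein of arrested fibroblasts, had 1516 CPM in 7d and 454 CPM in Ctrl, a ratio of 3.34 (2.65 to 4.20). Enpp2, not named there because 1 cell held 43.0% of its 7d UMIs, had a ratio of 2.06 (1.65 to 2.56). Romo1, a mitochondrial membrane protein, was at 2.83 (1.83 to 4.32) and Tspo, a mitochondrial sterol-binding protein, at 2.10 (1.39 to 3.10). Nedd4, a ubiquitin ligase, was at 1.94 (1.47 to 2.53), Lhfp at 2.31 (1.55 to 3.40) and Eid1, an inhibitor of differentiation, at 2.01 (1.39 to 2.88).

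**Figure D5:**
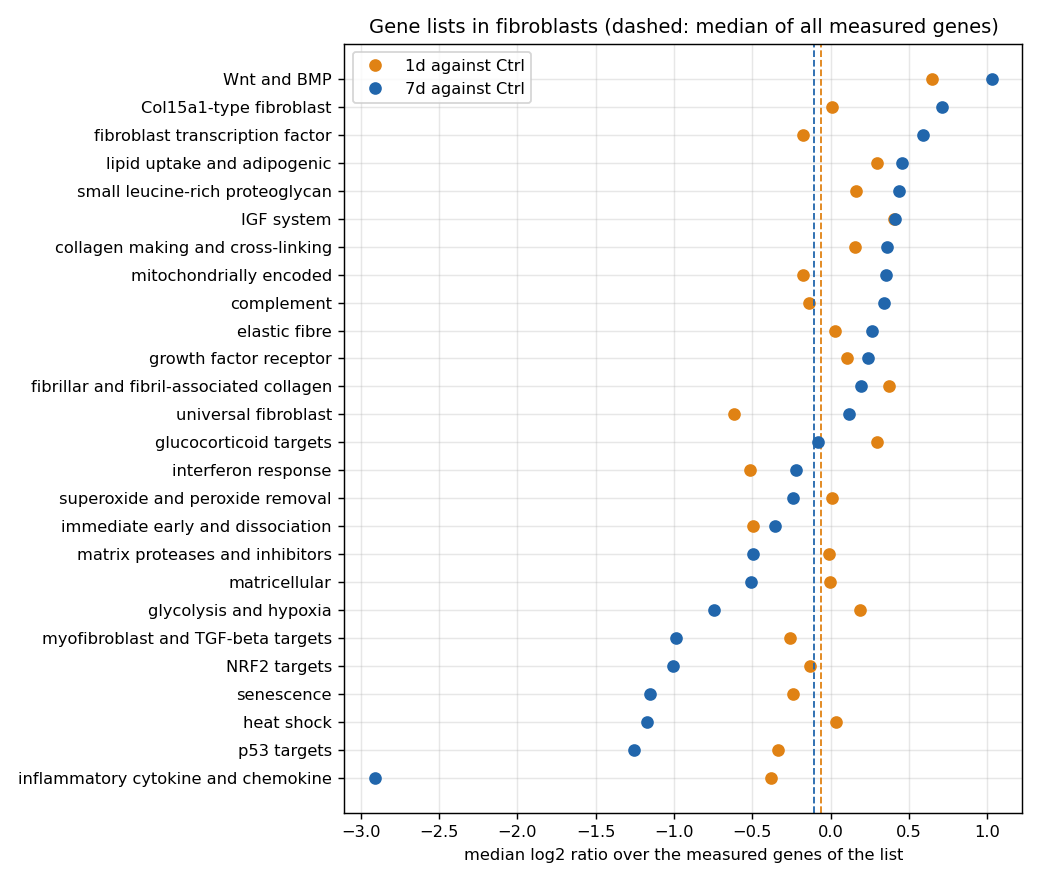
Median log2 ratio over the measured genes of 26 gene lists in fibroblasts, 1d against Ctrl and 7d against Ctrl; dashed lines are the medians of all measured genes, -0.06 and -0.10. Inflammatory genes reach -2.91 in 7d, and the Wnt and BMP genes are highest at 1.03.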

How the data were processed

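Single-cell RNA was measured in 3 libraries, Ctrl, 1d and 7d, each from 8 pooled mice. The deposited matrices hold whole-number UMI counts for 31253 genes, made with Cell Ranger 6.1.1 per the file headers. The submitters' processing notes name CASAVA 1.8, Cell Ranger, Seurat and mm10. No further filter by the authors is stated for these counts.

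Cells were kept at 500 UMIs, 250 genes and at most 15% mitochondrial UMIs, and the gate above was applied. Doublets were not removed in the values reported. Scrublet scores (scanpy 1.11.5), at 0.8% per 1000 kept cells, would have removed 8, 0 and 1 fibroblasts of Ctrl, 1d and 7d. UMIs were summed over the fibroblasts of a library and divided by their total. A ratio of these levels has an exact conditional 95% interval, and a share an exact binomial one, both from scipy 1.17.1. They cover counting error only, since each group is 1 library. A gene was measured where 10 or more UMIs were expected in each library, a sum of 0 was set to 3 UMIs, and past 2-fold means a ratio of 2 or more or 0.5 or less. TMM factors came from edgeR 4.0.16 in R 4.3.3 as an alternative scaling, and no count test was run. Scripts that compute ratios were tested on simulated data.

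Named genes were, on each side of each comparison, the 10 furthest from 1 by the nearer end of the interval. They had to be detected in 10% of fibroblasts, with no cell holding over 20% of the UMIs, in the library where they were higher, at a level not below that of all kept cells there. Haemoglobin, immunoglobulin, T cell receptor, mitochondrially encoded, ribosomal protein, sex-linked marker and unnamed gene models and genes of the gate were left out. To these were added the gate and marker genes and the 2 furthest members past 2-fold on each side of each list. Some genes that meet the rule are not reported here. Other list members were named for their role after their values were seen. The members of the gate and the 30 gene lists were chosen with earlier results of these data known. Promoter sequences are from RefSeq (GRCm38.p6), and gene positions from GENCODE on GRCm38.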

Additional observations from a re-analysis of the deposited data

Results flagged for a closer look

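For 5 genes the 1d and the 7d values were past 2-fold on opposite sides of the same Ctrl library, and the difference between 1d and 7d was not tested. Hmox1, the haem oxygenase, had a ratio of 2.09 in 1d and 0.142 in 7d. Aspn, asporin of the gate, had 0.367 in 1d and 2.40 in 7d. C4b, a complement component, had 0.479 in 1d and 2.57 in 7d. Ptx3, a pentraxin, had 2.55 in 1d and a value at the floor of 0.151 in 7d, where no UMI was found, which makes it at least 6.61-fold lower. All 46 of its 1d UMIs were in 1 cell. Thbs1, thrombospondin 1, had 2.81 in 1d and 0.105 in 7d. In 1d 73.3% of its UMIs were in 1 cell, and its log2 ratio was 0.07 with the highest cell left out.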

How the results depend on the processing

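No paired analysis was possible because each group is 1 library. The shares stayed within their intervals under the alternatives tried for them, and the stricter cell filter left 68, 12 and 15 fibroblasts. Counts of genes past 2-fold moved with settings that change how many genes are measured or the scaling. In 1d the 38 higher genes became 7 with cells thinned to 1000 UMIs, 23 under TMM factors, 95 with 5 expected UMIs, 8 with 30, and 10 with the highest cell of each gene left out. The 76 lower genes of 1d became 16, 127, 228 and 19 under the first 4 of these. In 7d the 89 higher genes became 10, 36, 265, 21 and 38 under the same 5, and the 266 lower genes became 44, 443, 527 and 83 under the first 4. Thinning left 30 named genes of 1d and 37 of 7d without a value. Among genes past 2-fold and list medians 0.5 or more from 0 (log2), direction reversed in 1d for Apoe (-0.61, log2) with the highest cell left out, for Col12a1 (-0.21) without the deepest fibroblast, for Itgbl1 (-0.23 without the deepest, -0.049 without the highest cell) and for Procr (0.59 without cells carrying blood RNA, 0.57 without the deepest). In 7d it reversed for Apod (-0.44, highest cell left out), Mat2a (0.051, thinned) and the median of matricellular genes (0.025, thinned). List medians nearer to 0 also changed sign in 7d, among them matrix proteases (-0.49, up to 0.46 without the deepest fibroblast), elastic fibre genes (-0.60, thinned), collagens (-0.24, TMM) and glucocorticoid targets (0.16, highest cell left out). The cause of these reversals was not tested. Leaving out the deepest or the highest cell was chosen after seeing the data. With 12 and 15 cells in 1d and 7d and no replicates, no value here covers the spread between mice.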
